A study of Drosophila melanogaster with 12 samples.

Results

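The comparison described here set dexamethasone against vehicle on the smaller of the 2 array designs of the series, and rested on 4 of the 12 arrays. Its members were chosen by label: the 2 arrays titled DEX+CHX on that design, replicates 1 and 2, and the 2 vehicle arrays titled V+CHX, 1 numbered 2 and 1 with no number that is called replicate 3 here. All 4 arrays held total RNA from heads of CLKGR flies, and all 4 samples had received CHX as well as DEX or vehicle (V). The labels gave no time of day, age, sex, dose or duration for these 4 arrays, no promoter for CLKGR, and nothing that told separate groups of flies apart. Nothing therefore shows that the spread behind the p-values below is more than technical. The series' title names CLK targets in fly heads as its subject.

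CLK is the transcription factor that, paired with CYC, switches on the genes of the Drosophila circadian clock through E-box elements. CLKGR is CLK joined to the ligand-binding part of the glucocorticoid receptor, so that DEX, a synthetic glucocorticoid that flies lack, lets the fusion act in the nucleus. CHX, cycloheximide, blocks translation, so that a change in RNA is not relayed through newly made protein. Direct CLK targets known from textbooks include tim and per, whose proteins later repress CLK and CYC, and vri, Pdp1 and cwo, which encode transcription factors of the interlocked loops.

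Levels are natural logs of the deposited intensities, read here as log2 values. The highest deposited value was 3300359, whose natural log is 15.01 and whose log2 would be 21.65, a span beyond what a scanner gives. Taken as log2 of the deposited values instead, every difference would be 1.44 times as large with the same tests. Of 13966 probe sets other than controls, 8379 had a mean level above the 40th percentile, 2.92, and were tested; they stood for 6861 genes with a single gene name. With 2 arrays a group an exact two-sided permutation test cannot go below p = 0.333, so the test was limma's moderated fit over all 8379 probe sets with Benjamini-Hochberg adjustment.

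The labels went against the other design of the series for the best-known CLK targets. On its timed arrays tim and per were higher with DEX, and on the 4 arrays here both were lower on the arrays labelled DEX, so those arrays are named by their label throughout. Pearson correlations over the tested probe sets were 0.978 between the 2 arrays labelled DEX, 0.974 between the 2 vehicle arrays and 0.965 to 0.981 across the labels. Bacterial spike-in transcripts added during hybridisation were dimmer on arrays labelled DEX, by 0.49 to 0.64 for bioB, bioC and bioD and by 0.13 for cre. Vehicle replicate 3 had the highest median level, 3.51, while the other arrays stood between 3.43 and 3.44. The level of 18S ribosomal RNA was 6.91 and 9.54 on arrays labelled DEX and 8.22 and 8.24 on vehicle arrays. All 6 neuronal and all 6 photoreceptor markers with a probe set of their own lay above the filter level, while 2 of 3 ovary, 0 of 2 gut and 0 of 2 testis markers did. In the wider lists 23 of 43 gut protease and glycosidase genes and 6 of 17 testis genes on the array passed the filter. The part these features play in the differences below was not tested.

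A single gene passed the adjusted threshold of 0.05, which was 0.0119% of the tested probe sets, and it was the clock gene tim. It was lower on the arrays labelled DEX. At an unadjusted limma p under 0.05, 268 probe sets (3.2%) were higher on arrays labelled DEX and 186 (2.22%) were lower, 5.42% of all in either direction. With no difference at any of the 8379 probe sets, 419 would be expected at that cutoff, against 454 found. Counted by gene, 228 (3.32%) were higher and 152 (2.22%) lower. Both arrays labelled DEX lay above both vehicle arrays for 831 genes (12.1%) and below them for 2138 genes (31.2%), and the median change over all genes was -0.05. Each gene count below is read against these shares. Some genes passed the filter through 1 group alone: Alp10, Alp9, CG34112, CG4956, CG9826, Gat, Neto and E(spl)m2-BFM were under the filter level on both arrays labelled DEX, and yin and Debcl on both vehicle arrays. Gad1 and Brd had a mean of 2.91 on arrays labelled DEX, also under the filter level, and passed through their vehicle levels. These genes had to differ to be tested, so their values are descriptions, and their places in the counts below support nothing. Leaving out an array leaves 1 array in its group, which is then assumed to vary like the other group, whose pair alone gives the spread. In such fits 192 probe sets passed the adjusted threshold without labelled DEX replicate 1 and 314 without labelled DEX replicate 2, and 0 passed without vehicle replicate 2 or without vehicle replicate 3, where 349 and 131 were higher and 956 and 342 lower at an unadjusted p under 0.05.

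The core clock genes had the largest difference of the comparison, and it ran downward on the arrays labelled DEX. The level of tim was 3.98 and 4.05 on arrays labelled DEX and 7.77 and 7.87 on vehicle arrays. The groups lay far apart and each was tight: tim fell by 3.80 ± 0.20 (SE) on the log2 scale, 14.0-fold (limma, adjusted p = 0.0246). Over the alternatives that kept all 4 arrays the adjusted limma p of this probe set ran between 0.000285 and 0.22. With the spread taken from the arrays labelled DEX alone, it was 0.239 on leaving out vehicle replicate 2 and 0.312 on leaving out vehicle replicate 3. The difference itself stayed between -3.85 and -3.75 whichever array was left out. A second tim probe set had levels of 5.04 and 4.54 on arrays labelled DEX and 6.82 and 6.97 on vehicle arrays, and the dimmest of the 3 had 2.92 and 2.96 against 2.98 and 3.17.

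The level of per, the partner of tim in the repressing complex, was 5.54 and 5.63 on arrays labelled DEX and 8.30 and 6.67 on vehicle arrays. Both vehicle arrays were higher, but they differed from each other by more than the 2 arrays labelled DEX did. The difference was -1.90 ± 0.53 (limma, adjusted p = 0.778), and it became -1.09 on leaving out vehicle replicate 2 and -2.71 on leaving out vehicle replicate 3. For Pdp1, a bZIP factor that activates Clk, levels were 3.78 and 3.67 on arrays labelled DEX and 5.58 and 6.08 on vehicle arrays. That gap was -2.10 ± 0.22, and it missed the threshold (limma, adjusted p = 0.148).

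The other CLK-driven loop genes did not separate as clearly. The transcriptional repressor cwo had levels of 4.56 and 4.36 on arrays labelled DEX and 5.56 and 4.64 on vehicle arrays, a difference of -0.64 ± 0.32 that became -0.19 on leaving out vehicle replicate 2 and -1.10 on leaving out vehicle replicate 3. Another cwo probe set did not pass the filter. It had 2.36 and 2.37 on arrays labelled DEX, 4.02 on vehicle replicate 2 and 2.42 on vehicle replicate 3. The repressor vri had 6.47 and 5.85 on arrays labelled DEX and 7.36 and 5.37 on vehicle arrays. The vehicle values of vri enclosed those of the arrays labelled DEX, its difference was -0.21 ± 0.66, and it turned to 0.10 without labelled DEX replicate 2, to 0.79 without vehicle replicate 2 and to 0.28 under spike-in scaling.

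Clk and cry, whose RNAs normally peak opposite to those of per and tim, and cyc had mean levels above vehicle. Clk, whose probe set could also detect CLKGR RNA, had levels of 7.70 and 8.81 on arrays labelled DEX and 7.88 and 7.30 on vehicle arrays, and the groups overlapped. The blue-light photoreceptor gene cry had 5.66 and 5.04 on arrays labelled DEX and 5.02 and 4.30 on vehicle arrays, a difference of 0.69 ± 0.33 with a narrow gap between the groups. The CLK partner cyc had 3.31 and 3.62 on arrays labelled DEX and 3.24 and 3.26 on vehicle arrays, 0.21 ± 0.13. None of these 3 passed the test.

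**Figure D1:**
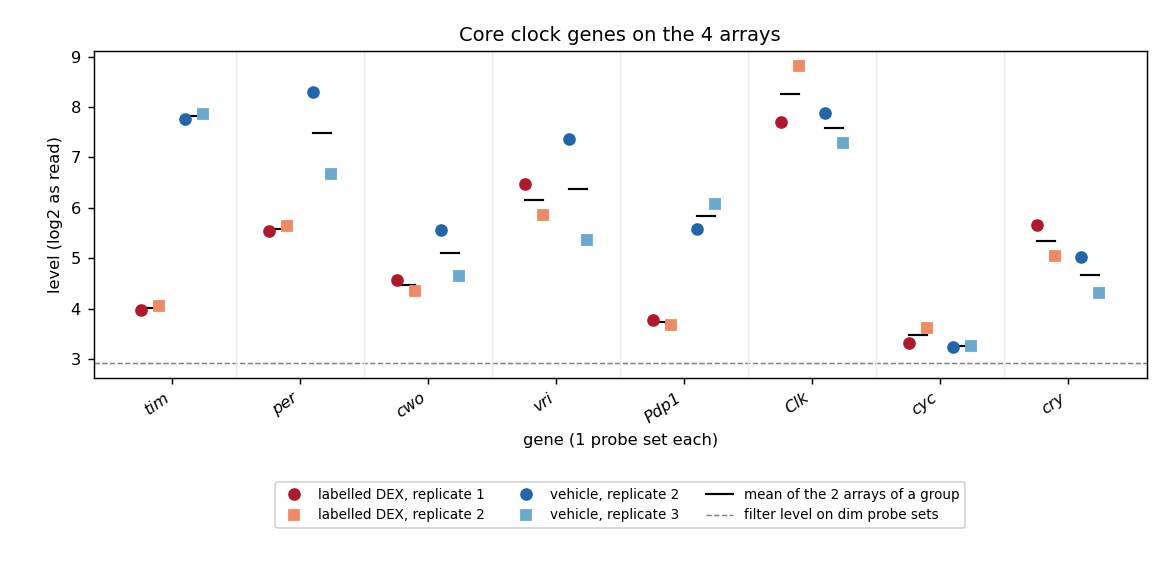
Levels of the 8 core clock genes on each of the 4 arrays (log2 as read, 1 probe set a gene), with arrays labelled DEX in red and orange left of vehicle arrays in blue; black bars are the means of a group's 2 arrays and the dashed line is the filter level, 2.92. The separation of tim, 3.98 and 4.05 against 7.77 and 7.87, is the widest, and the vehicle arrays themselves part for per, vri and cwo.

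Of the 8 core clock genes, all tested, 3 were lower and 0 higher at an unadjusted p under 0.05, and the groups did not overlap for 4 lower and 2 higher genes. Their median change was -0.42, against -0.05 over all genes, and it was 0.06 when arrays were scaled by their spike-ins, which moved the median of all tested probe sets to 0.44. With 1 array left out, the count of lower genes ran between 3 and 5 and that of higher genes between 0 and 2; this count was added after the data were seen. Among 10 tested kinases, phosphatases and F-box proteins that act on clock proteins, 0 reached an unadjusted p under 0.05 in either direction, with a median change of 0.00.

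A group of membrane transporters followed tim in size. These belong to the anion and phosphate branch of the major facilitator superfamily, whose members move phosphate, urate and other organic anions across membranes. Of 22 such genes on the array 15 were tested; 5 were lower and 0 higher at an unadjusted p under 0.05, 9 lay below and 1 above without overlap, and the median change was -0.03. Leaving out 1 array made these counts 3 to 6 lower and 0 or 1 higher. The list was marked by a few members with large differences and not by a shift of all of them, and none passed the adjusted threshold.

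CG15096 had levels of 6.12 and 5.55 on arrays labelled DEX and 8.89 and 8.76 on vehicle arrays. This is 7.93-fold lower, -2.99 ± 0.29 (limma, adjusted p = 0.148), and between -3.27 and -2.70 with 1 array left out. Its immediate neighbour among protein-coding genes in the RefSeq table of assembly Release 6 plus ISO1 MT is MFS14, another transporter of the family. MFS14 was among the brightest of the named genes, at 6.94 and 8.20 on arrays labelled DEX and 10.68 and 9.39 on vehicle arrays. Arrays within each group differed by over 1 for MFS14, and its difference was -2.47 ± 0.58 (limma, adjusted p = 0.746). A second MFS14 probe set had 3.78 and 5.23 on arrays labelled DEX and 7.51 and 6.11 on vehicle arrays, so both reported the same array order.

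CG8008 had levels of 3.66 and 3.25 on arrays labelled DEX and 5.73 and 5.44 on vehicle arrays, -2.13 ± 0.21 (limma, adjusted p = 0.148). Its groups were each tight and stood apart. Picot, a phosphate co-transporter, had 4.89 and 4.74 on arrays labelled DEX and 7.16 and 5.19 on vehicle arrays. Vehicle replicate 2 alone set most of that difference, which was -1.36 ± 0.62 with all arrays, -0.38 if vehicle replicate 2 was left out and -2.35 if vehicle replicate 3 was. The second Picot probe set, near the filter level, differed by -0.23. The smaller differences of MFS3 at -0.55 ± 0.17 and CG9826 at -0.28 ± 0.10 completed the 5 lower genes with CG15096, CG8008 and MFS14. CG9826 was one of the genes that passed the filter through the vehicle arrays alone, and it turned to 0.21 under spike-in scaling.

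The alkaline phosphatases, which release phosphate from organic compounds at the cell surface, were mostly dim, and of 13 on the array only 6 were tested. Their median change was -0.14. The 2 at an unadjusted p under 0.05, Alp10 and Alp9, both lower, passed the filter through the vehicle arrays alone. Alp10 had levels of 2.52 and 2.55 on arrays labelled DEX and 6.28 and 4.44 on vehicle arrays. Alp9, its next protein-coding neighbour in the same RefSeq table, had 2.22 and 2.26 on arrays labelled DEX and 5.29 and 2.97 on vehicle arrays. Vehicle replicate 2 was the brighter vehicle array for both genes. The differences were -2.83 ± 0.56 for Alp10 and -1.89 ± 0.70 for Alp9, and Alp9 was at -0.73 if vehicle replicate 2 was left out and at -3.05 if vehicle replicate 3 was. Alp13 stood at -0.14 ± 0.08, near the median of its list, and at 0.34 under spike-in scaling.

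**Figure D2:**
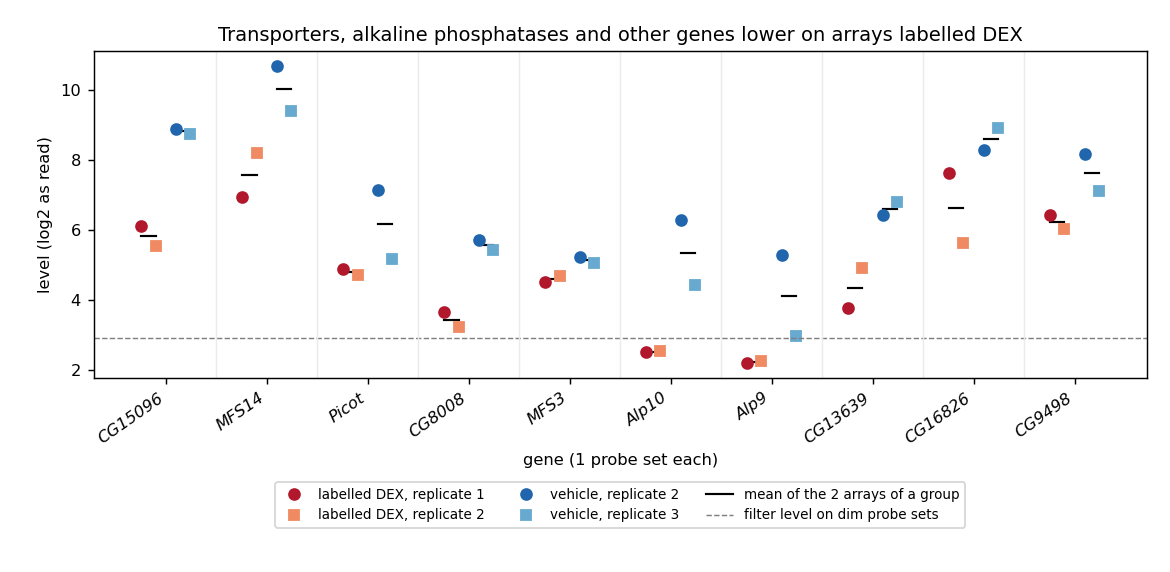
Levels of 5 anion and phosphate transporters, 2 alkaline phosphatases and 3 other genes with large differences on each of the 4 arrays (log2 as read, 1 probe set a gene), with arrays labelled DEX left of vehicle arrays, bars for group means and a dashed filter level of 2.92. CG15096 and CG8008 have tight groups, whereas Picot and Alp9 are high mainly on vehicle replicate 2, and Alp10 is above the arrays labelled DEX on both vehicle arrays.

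The bHLH-Orange repressors, many of them Notch targets and with the clock repressor cwo among them, and the Bearded genes were also dimmer on arrays labelled DEX without any passing the test. Of 15 on the array 7 were tested, 0 reached an unadjusted p under 0.05, 5 lay below vehicle without overlap and 0 above, and the median change was -0.41, or 0.08 under spike-in scaling. Leaving out 1 array put 2 to 5 of them at that p and lower, and 1 was higher without vehicle replicate 2. E(spl)m3-HLH had levels of 3.56 and 3.59 on arrays labelled DEX and 5.04 and 3.82 on vehicle arrays. E(spl)m3-HLH stood at -0.86 ± 0.38, and between -1.47 and -0.24 with 1 array left out. E(spl)m2-BFM, its neighbour, had 2.39 and 2.41 on arrays labelled DEX and 5.82 and 2.48 on vehicle arrays. This gene was bright on vehicle replicate 2 only, and its difference of -1.75 ± 1.00 shrank to -0.08 without that array. Tom and Brd, also neighbours, stood at -0.24 ± 0.11 and -0.15 ± 0.08, and both turned positive, to 0.24 and 0.34, under spike-in scaling. Brd passed the filter through its vehicle level.

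Clock and bHLH-Orange genes also parted the vehicle arrays from each other. The median gap between the 2 arrays labelled DEX was 0.26 for the core clock list and 0.04 for the bHLH-Orange and Bearded list, against 0.09 for all genes. Between the 2 vehicle arrays the matching gaps were 0.65, 0.91 and 0.13. Over all genes, 94 (1.37%) differed by more than 1 between the arrays labelled DEX and 160 (2.33%) between the vehicle arrays. Time of day is not labelled on these arrays, and its part in these gaps was not tested.

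Several genes outside these lists had large or tight differences in the same direction. CG13639 had levels of 3.78 and 4.93 on arrays labelled DEX and 6.42 and 6.81 on vehicle arrays, -2.26 ± 0.41 (limma, adjusted p = 0.57). CG16826 had 7.64 and 5.63 on arrays labelled DEX and 8.30 and 8.91 on vehicle arrays, and CG9498 had 6.42 and 6.05 on arrays labelled DEX and 8.16 and 7.11 on vehicle arrays. Their differences were -1.97 ± 0.67 and -1.40 ± 0.40. For CG16826 the wide spread lay within the arrays labelled DEX, and the value ran between -2.97 and -0.96 with 1 array left out.

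The remaining genes with the smallest p among the lower ones had smaller differences. CG34112 had levels of 2.85 and 2.88 on arrays labelled DEX and 3.97 and 4.49 on vehicle arrays, -1.37 ± 0.18. Mayo stood at -0.94 ± 0.14, CG8399 at -0.80 ± 0.13, and CG4956 at -0.43 ± 0.07. Neto, which encodes an auxiliary protein of glutamate receptors, had 2.87 and 2.91 on arrays labelled DEX and 3.46 and 3.68 on vehicle arrays, -0.68 ± 0.10. The other Neto probe sets, all under the filter level, differed by -0.13 or less in size. Gat, a GABA transporter of glia, had 2.90 on both arrays labelled DEX and 3.37 and 3.52 on vehicle arrays, -0.54 ± 0.09. Of these 6 genes Mayo and CG8399 alone were above the filter level on all 4 arrays, with adjusted limma p of 0.395 and 0.405, and CG4956 stood at 0.05 under spike-in scaling.

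In the other direction no gene passed the adjusted threshold, and the smallest p belonged to dl. It encodes Dorsal, an NF-kappaB factor of the Toll pathway, which relays the sensing of fungi and Gram-positive bacteria to the nucleus, while the IMD pathway does so for Gram-negative bacteria through the factor Relish. The level of dl was 4.62 and 4.61 on arrays labelled DEX and 3.08 and 3.19 on vehicle arrays, 1.48 ± 0.12 or 2.78-fold (limma, adjusted p = 0.109). Both groups were tight, and the value ran between 1.43 and 1.53 with 1 array left out. The vehicle levels were dim, close to the 10th percentile of tested probe sets, 2.99 on vehicle replicate 2 and 3.08 on vehicle replicate 3.

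Other Toll and IMD pathway genes stood on both sides of 0. Of 26 on the array 25 were tested, with 4 higher and 0 lower at an unadjusted p under 0.05, and 9 above and 2 below without overlap. The median change was 0.10, against -0.05 over all genes. With 1 array left out the count of higher genes ran between 1, without vehicle replicate 3, and 8, without labelled DEX replicate 1, and that of lower genes was 0 each time.

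Upstream of the receptor, spz, which encodes the Toll ligand Spätzle, had levels of 4.87 and 5.14 on arrays labelled DEX and 4.78 and 4.42 on vehicle arrays, 0.41 ± 0.21. The protease SPE, which cuts Spätzle into its active form, had 6.89 and 7.22 on arrays labelled DEX and 6.63 and 5.85 on vehicle arrays, 0.82 ± 0.33. The protease psh, which senses microbial proteases, stood at 0.34 ± 0.15. The serpin nec, which holds this cascade back, had 8.22 and 8.05 on arrays labelled DEX and 7.41 and 7.02 on vehicle arrays, 0.92 ± 0.26 (limma, unadjusted p = 0.0139). In all 4 genes both arrays labelled DEX lay above both vehicle arrays.

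Inside the cell, cact, the IkappaB protein that retains Dorsal in the cytoplasm, had levels of 7.00 and 6.74 on arrays labelled DEX and 6.25 and 5.61 on vehicle arrays, 0.94 ± 0.30 (limma, unadjusted p = 0.0214). The IMD pathway inhibitor pirk had 5.24 and 5.21 on arrays labelled DEX and 4.74 and 4.43 on vehicle arrays, 0.64 ± 0.18 (limma, unadjusted p = 0.0152). Rel, which encodes Relish, had 7.51 and 7.73 on arrays labelled DEX and 7.11 and 5.29 on vehicle arrays. Here vehicle replicate 3 stood far below the other 3 arrays, and the difference of 1.42 ± 0.59 was 0.51 without that array and 2.33 without vehicle replicate 2.

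The induced peptides of these pathways did not share one direction. Of 13 on the array 12 were tested, 3 higher and 1 lower at an unadjusted p under 0.05, 3 above and 3 below without overlap, with a median change of -0.03. The counts moved, with 1 array left out, to between 1 and 3 higher and between 0, without vehicle replicate 3, and 5 lower, without labelled DEX replicate 2. The Bomanin peptide gene BomBc3, a Toll target, had levels of 7.58 and 6.98 on arrays labelled DEX and 6.42 and 6.05 on vehicle arrays, 1.05 ± 0.30. Listericin, an antibacterial peptide gene, had 11.91 and 11.83 on arrays labelled DEX and 10.79 and 11.43 on vehicle arrays, 0.76 ± 0.24. DptB, a Diptericin gene driven by the IMD pathway, had 2.59 and 3.95 on arrays labelled DEX and 4.50 and 5.17 on vehicle arrays, -1.57 ± 0.47 (limma, unadjusted p = 0.0172). With 1 array left out the value of DptB ran between -2.25 and -0.89. The Attacin gene AttD, at -0.63 ± 0.25, and the Defensin gene Def, at -1.27 ± 0.57, were also dimmer on arrays labelled DEX. For Def the value became -0.39 on leaving out vehicle replicate 3 and -2.15 on leaving out vehicle replicate 2.

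Inhibitors of serine proteases include CG16713, the gene with the largest positive difference, and CG3604. Of 32 Kunitz and serpin genes on the array 22 were tested, 6 higher and 0 lower at an unadjusted p under 0.05, 10 above and 3 below without overlap, with a median change of 0.29. The count of higher genes ran between 3, without vehicle replicate 3, and 7, without labelled DEX replicate 2. The Kunitz gene CG16713 had levels of 7.23 and 7.14 on arrays labelled DEX and 5.41 and 5.07 on vehicle arrays, 1.94 ± 0.23 or 3.84-fold (limma, adjusted p = 0.237). A second Kunitz gene, CG3604, had 6.23 and 5.66 on arrays labelled DEX and 4.30 and 4.31 on vehicle arrays, 1.65 ± 0.24 (limma, adjusted p = 0.395). Between them in the RefSeq table lies IM33, which encodes an immune-induced peptide with a Kunitz domain and belongs to both lists. IM33 was the brightest of the 3, at 10.61 and 10.86 on arrays labelled DEX and 10.31 and 10.02 on vehicle arrays, 0.57 ± 0.20 (limma, unadjusted p = 0.0351). All 3 of these adjacent genes had both arrays labelled DEX above both vehicle arrays. Neighbours were sought among the named genes alone, so other genes nearby are not described and the shared direction supports nothing. The serpins Spn28Dc and Spn88Ea stood at 0.69 ± 0.21 and 0.63 ± 0.19, and nec is the sixth gene of that count.

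**Figure D3:**
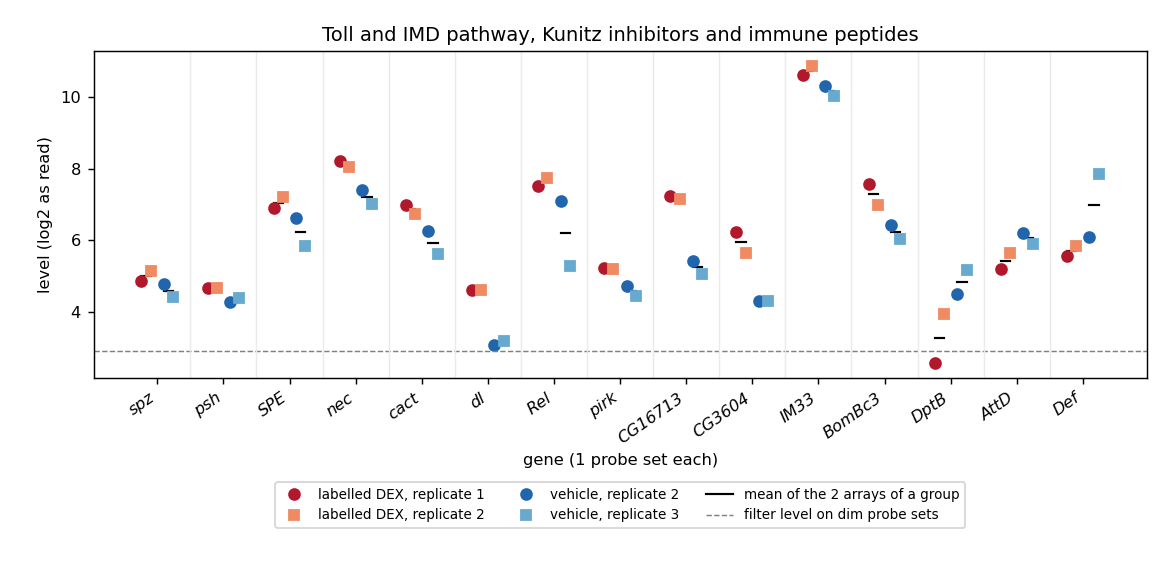
Levels of Toll and IMD pathway genes, Kunitz inhibitors and immune peptides on each of the 4 arrays (log2 as read, 1 probe set a gene), with arrays labelled DEX left of vehicle arrays, bars for group means and a dashed filter level of 2.92. The groups of dl, 4.62 and 4.61 against 3.08 and 3.19, are tight, vehicle replicate 3 is low for Rel and high for Def, and DptB, AttD and Def run opposite to BomBc3 and IM33.

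The genes with the next smallest p on the higher side came from unrelated families. The oligopeptide transporter gene yin had levels of 3.75 and 3.64 on arrays labelled DEX and 2.77 and 2.86 on vehicle arrays, 0.88 ± 0.09, and it passed the filter through the arrays labelled DEX alone. Srp72, part of the particle that brings ribosomes to the endoplasmic reticulum, had 4.18 and 4.02 on arrays labelled DEX and 3.17 and 3.18 on vehicle arrays, 0.93 ± 0.11 (limma, adjusted p = 0.237). Among the 17 tested genes of this signal recognition particle and its translocon, Srp72 was the single gene higher at an unadjusted p under 0.05, with 1 lower and a median change of 0.06. The ETS-type repressor gene aop had 4.60 and 4.67 on arrays labelled DEX and 3.68 and 3.78 on vehicle arrays, 0.90 ± 0.13 (limma, adjusted p = 0.395).

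Zip89B, a zinc transporter gene, had levels of 5.22 and 4.67 on arrays labelled DEX and 3.56 and 3.63 on vehicle arrays, 1.35 ± 0.21. Trl, which encodes the GAGA factor, stood at 0.67 ± 0.10, and Debcl, a pro-apoptotic Bcl-2 family gene, at 0.79 ± 0.12. CG12268, CG3008 and CG4198 stood at 1.13 ± 0.18, 0.83 ± 0.13 and 0.66 ± 0.09. The adjusted limma p was 0.284 for CG4198 and 0.397 for Zip89B, Trl, CG12268 and CG3008, and Debcl passed the filter through the arrays labelled DEX alone. All 6 had groups that did not overlap, and with 1 array left out the lowest of their differences was 0.61, for Trl.

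Other large positive differences shrank when vehicle replicate 3, the lowest of the 4 arrays for each of these genes, was left out. CG13482 had levels of 7.89 and 8.87 on arrays labelled DEX and 7.59 and 5.36 on vehicle arrays, 1.90 ± 0.76. The astacin-type protease gene CG15255 had 6.19 and 6.90 on arrays labelled DEX and 5.79 and 3.65 on vehicle arrays, 1.83 ± 0.70. The destabilase-type lysozyme gene CG6421 had 6.52 and 6.02 on arrays labelled DEX and 5.74 and 3.99 on vehicle arrays, 1.40 ± 0.57. Without vehicle replicate 3 these differences were 0.79, 0.76 and 0.53. The trypsin-like protease gene CG7142 had 6.49 and 7.53 on arrays labelled DEX and 5.75 and 4.46 on vehicle arrays, 1.91 ± 0.53, and it was 1.26 without that array. Jhbp13, of the juvenile hormone binding protein family, had 6.36 and 6.04 on arrays labelled DEX and 5.58 and 4.10 on vehicle arrays, 1.36 ± 0.49, or 0.62 without vehicle replicate 3.

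Heat shock genes and chaperones had the highest median of the 49 lists, 0.35, with 0 of 9 tested genes at an unadjusted p under 0.05 and 5 above vehicle without overlap; with 1 array left out 0 to 2 were higher. Hsf, the heat shock transcription factor gene, had levels of 4.78 and 4.99 on arrays labelled DEX and 4.70 and 4.04 on vehicle arrays, 0.52 ± 0.25. Hsp68, a chaperone of the Hsp70 family, stood at 0.49 ± 0.24, and the small chaperone Hsp27 at 0.45 ± 0.25. The co-chaperone stv stood at 0.60 ± 0.32, while its second probe set stood at -0.40. All 9 of these genes were brighter on vehicle replicate 2 than on vehicle replicate 3, which held for 29.3% of all genes. That share is not matched in brightness. The dimmest of the 9, Hsf, had a mean level of 4.63, above the array medians of 3.43 to 3.51. The 10th percentile of tested probe sets was 3.08 on vehicle replicate 3 and 2.99 on vehicle replicate 2.

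**Figure D4:**
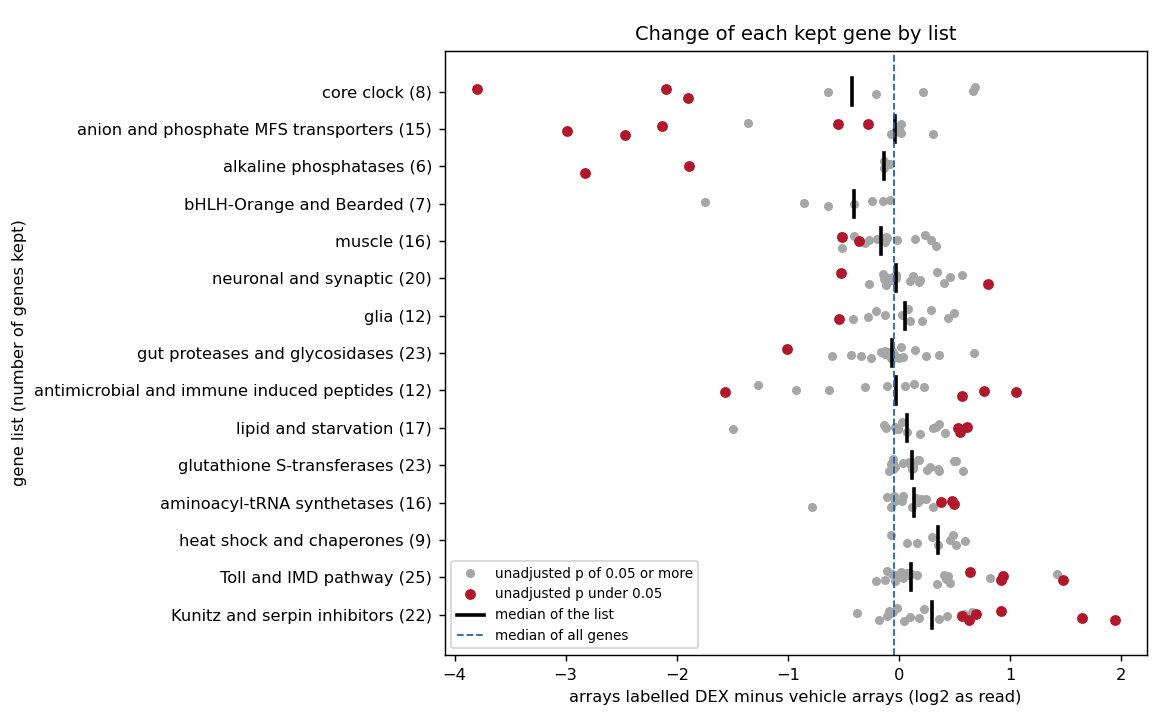
Change of each tested gene (arrays labelled DEX minus vehicle arrays, log2 as read) in 15 gene lists, with the number of tested genes in brackets; red points have an unadjusted limma p under 0.05, black bars are list medians and the dashed line is the median of all genes, -0.05. The farthest points, all lower on arrays labelled DEX, are clock genes, transporters and Alp10, and the largest positive ones are Kunitz inhibitors. Alp10 passed the filter through the vehicle arrays alone, so its point is a description.

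Metabolic and translation lists had medians between -0.09 and 0.13. Among 16 aminoacyl-tRNA synthetases, the enzymes that charge tRNAs, 3 were higher and 0 lower at an unadjusted p under 0.05, with a median change of 0.13: ArgRS at 0.37 ± 0.11, GlnRS at 0.49 ± 0.17 and TrpRS at 0.48 ± 0.18. IleRS ran the other way, with levels of 3.46 and 3.28 on arrays labelled DEX and 3.66 and 4.64 on vehicle arrays, -0.78 ± 0.32. The count of higher synthetases ran, with 1 array left out, between 0, without vehicle replicate 2, and 2, and that of lower ones was 0 or 1. Of 17 tested genes of lipid use and starvation 3 were higher and 0 lower, against 1 to 5 higher and 1 or 2 lower with 1 array left out. These were whd, which encodes carnitine palmitoyltransferase, at 0.53 ± 0.18, chico, the insulin receptor substrate gene, at 0.61 ± 0.21, and ACC, acetyl-CoA carboxylase, at 0.55 ± 0.19. A second ACC probe set stood at -0.14. The largest difference of that list was in sug, named after its values were seen, with levels of 4.83 and 4.46 on arrays labelled DEX and 8.50 and 3.78 on vehicle arrays, which overlapped, and -1.50 ± 1.43. Of 23 tested glutathione S-transferases, which detoxify foreign compounds, 0 reached an unadjusted p under 0.05, although 9 lay above and 1 below without overlap, and 3 were higher at that p without labelled DEX replicate 2. Their median was 0.12, and GstE3, GstE9 and GstD9 stood at 0.49 ± 0.21, 0.51 ± 0.28 and 0.57 ± 0.34. Cytoplasmic ribosomal protein genes (27 tested), proteasome genes (31) and respiratory chain and ATP synthase genes (51) had 0 genes at an unadjusted p under 0.05 and medians of 0.07, -0.09 and -0.01.

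The lists for head cell types and for other tissues that a head sample could hold had these values. Fewer cells of a type and less RNA per cell cannot be told apart in whole heads. Of 20 tested neuronal and synaptic genes 1 was higher and 1 lower at an unadjusted p under 0.05, with a median change of -0.03, against 0 to 2 higher and 1 to 3 lower with 1 array left out. Ddc, of dopamine and serotonin synthesis, had levels of 7.33 and 7.62 on arrays labelled DEX and 6.89 and 6.45 on vehicle arrays, 0.80 ± 0.28. Gad1, of GABA synthesis, had 2.80 and 3.01 on arrays labelled DEX and 3.65 and 3.21 on vehicle arrays, -0.52 ± 0.16. The mean of Gad1 on arrays labelled DEX was under the filter level, so Gad1 had to differ to be tested and its place in the count supports nothing. The microtubule protein gene futsch stood at 0.45 ± 0.20, and at -0.04 on a probe set under the filter level. Another futsch probe set, above the filter level, stood at 0.16 with groups that overlapped. The 17 tested phototransduction genes had none at an unadjusted p under 0.05 in either direction and a median of -0.04.

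Of 12 tested glial genes the 1 at an unadjusted p under 0.05 was Gat, lower, which passed the filter through the vehicle arrays alone, and their median was 0.05. Leaving out 1 array made it 0 to 3 higher and 1 or 2 lower. The exchanger gene Ndae1 stood at 0.44 ± 0.18 and nrv2, a sodium pump subunit gene, at -0.41 ± 0.17, or 0.07 under spike-in scaling. The summed level of the 6 glial markers above the filter level was 26.0 to 27.3 on arrays labelled DEX and 27.7 on both vehicle arrays. That sum included Gat, which had to differ to be tested, so its gap is a description and supports nothing. Of 16 tested muscle genes 2 were lower and 0 higher: up, troponin T, at -0.51 ± 0.20 and bt, projectin, at -0.36 ± 0.14, which was 0.13 under spike-in scaling. Between 1 and 5 muscle genes were lower and 0 or 1 higher with 1 array left out. Strn-Mlck, a myosin light chain kinase gene, stood at 0.34 ± 0.13, and at -0.07 on probe sets under the filter level. Summed muscle markers, 6 genes, were 27.5 to 29.7 on arrays labelled DEX and 29.1 to 32.0 on vehicle arrays. Summed fat body markers, 7 genes, were 58.9 to 59.6 on arrays labelled DEX and 56.6 to 58.6 on vehicle arrays, and 0 of 10 tested fat body genes reached an unadjusted p under 0.05. Of 23 tested gut proteases and glycosidases 1 was lower and 0 higher: alphaTry, a trypsin gene, with levels of 8.19 and 8.50 on arrays labelled DEX and 9.39 and 9.31 on vehicle arrays, -1.01 ± 0.23 (limma, unadjusted p = 0.00586). Between 1 and 4 of them were lower and 0 to 2 higher with 1 array left out. Jon65Aiv, another serine protease gene, stood at -0.60 ± 0.28 and Mal-A2, a maltase gene, at -0.14 ± 0.08, or 0.35 under spike-in scaling. The part of cell composition in any of the differences above was not tested.

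The arrays of the other design that carry a time of day were 4 with DEX and 3 with vehicle, at Zeitgeber times 4 and 16 h. They ran the other way in sign for most of the 10 genes with the largest change in each direction here. They share no array with the 4 arrays described here, hold other probes and come from a separate table, so values are set side by side and the difference between the tables was not tested. For tim the difference was -3.80 ± 0.20 here and 3.21 ± 0.40 on the timed arrays, from an additive fit of treatment and time. On the timed arrays tim lay at 8.21 to 10.58 with DEX and at 5.49 to 6.70 with vehicle. For per it was -1.90 ± 0.53 here and 2.63 ± 0.35 on the timed arrays, where levels were 9.52 to 11.04 with DEX and 7.62 to 7.96 with vehicle. Neither tim nor per passed the adjusted threshold on the timed arrays, with an adjusted p of 0.304 for both in the additive fit.

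The transporters did likewise. The timed values were 2.44 ± 0.33 for CG15096, 2.43 ± 0.27 for MFS14, 2.22 ± 0.51 for CG8008 and 1.79 ± 0.31 for Picot. Those of CG9498 and CG13639 were 2.04 ± 0.33 and 1.33 ± 0.34. None of these timed values passed the adjusted threshold. The adjusted p of the additive fit was 0.202 for MFS14, 0.304 for CG15096 and 0.778 for CG9498. It was 0.856 for Picot and 0.994 for CG8008 and CG13639. In each of these 6 genes, and in tim and per, every DEX array lay above every vehicle array on the timed arrays and below every vehicle array here. For Alp10 and Alp9 the timed values were 2.45 ± 0.95 and 2.49 ± 1.05, with groups that overlapped. Other loop genes had timed values of 1.61 ± 0.30 for vri, 1.40 ± 0.54 for cwo and 0.30 ± 0.33 for Pdp1, so Pdp1, the second clock gene here by size, differed little there.

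Of the 10 genes with the largest negative differences here, all 10 had a positive timed value, and of the 10 with the largest positive differences 9 had a negative one. These are signs alone, and some values were smaller than their SE. They were 0.12 ± 1.73 for CG16826, 0.30 ± 0.33 for Pdp1, -0.78 ± 0.88 for CG15255 and -0.01 ± 0.66 for CG13482. Among the 10 higher genes, dl and Zip89B alone had timed groups that did not overlap. Signs were opposite for 2796 of the 5514 genes kept in both tables, 50.7%. On the higher side the timed values were -0.51 ± 0.24 for dl, -0.84 ± 0.25 for yin, -0.55 ± 0.20 for aop and -1.50 ± 0.38 for Zip89B, with every DEX array below every vehicle array. The adjusted p of the additive fit was 0.994 for dl, yin, aop and Zip89B, and the unadjusted p of dl was 0.0693. BomBc3 stood at -0.94 ± 0.23 and CG16713 at -0.69 ± 0.23, whereas CG3604, next but 1 to CG16713, stood at 0.01 ± 0.24. Of the higher genes with the smallest p, 6 of the 11 present in both tables had the opposite sign. A mismatch between label and content of these 4 arrays was not tested, and no array was moved to another group.

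**Figure D5:**
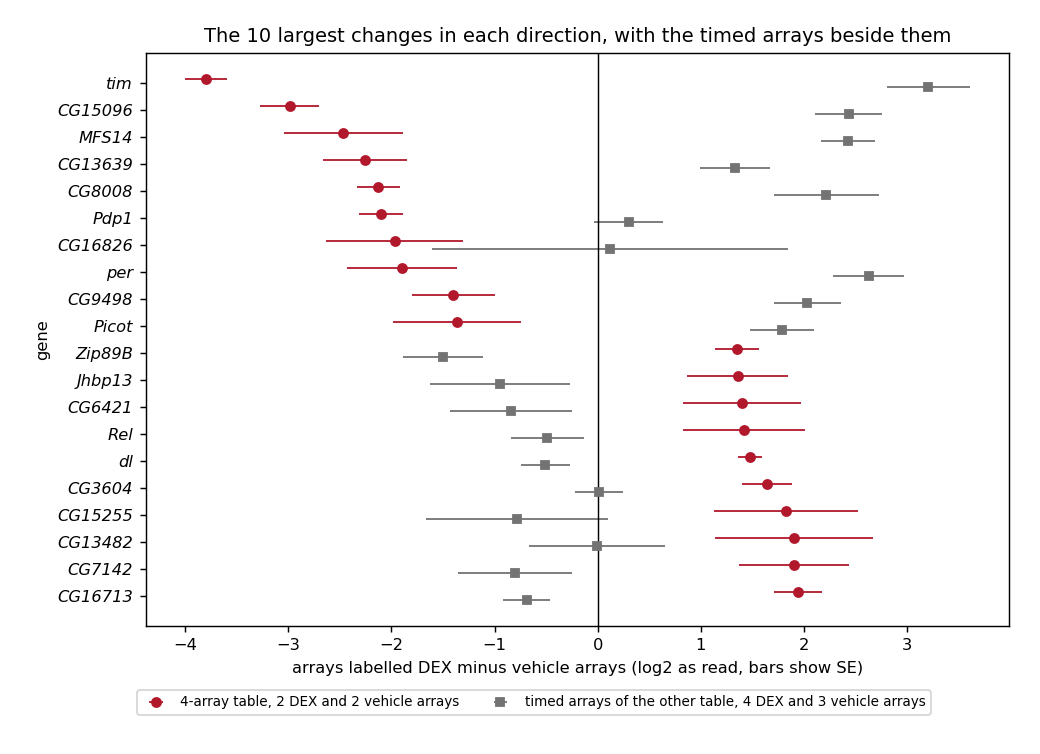
Differences between arrays labelled DEX and vehicle arrays (log2 as read) for the 10 largest in each direction, for the 4 arrays described here in red and for the 7 timed arrays of the other design in grey; bars are standard errors. The red and grey points lie on opposite sides of 0 for all 10 lower genes, from tim at -3.80 and 3.21 on, and for 9 of the 10 higher genes. Grey bars reach 0 for Pdp1, CG16826, CG3604, CG15255 and CG13482.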

How the data were processed

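Total RNA of fly heads was measured on Affymetrix arrays. The values are intensities as the authors deposited them, with no log base stated. GCRMA is the method named per the submitters' processing notes, and no version stands there. Its settings and the probe set definitions are likewise not given in the sources used here. The natural log of each value was taken and read as log2, and 44 control probe sets were left out. Of 13966 others, 12443 had 1 gene name in the platform annotation, 327 had several and 1196 had none. The RefSeq table holds 12394 of the single names. No 2 arrays held identical values.

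Probe sets with a mean level above the 40th percentile were tested in R 4.3.3 by limma 3.58.1, using lmFit and then eBayes with its variance trend, Benjamini-Hochberg adjustment and a threshold of 0.05, with 2 arrays labelled DEX and 2 vehicle arrays and no covariate. The fit was tested on simulated data. A gene with several probe sets was represented by the tested one with the highest mean. The precision is limited by the number of arrays.

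The genes named are the one past the threshold, the 12 in each direction with the smallest p, the 10 in each direction with the largest change among those with separate groups and 4 arrays above the filter level, all core clock genes, and within each of 15 described lists the members with the smallest p. The comparison, its genes and its 49 gene lists were chosen with earlier results of these data known. Lists are described by counts and medians, with no test. The timed arrays of the other table were fitted apart, with treatment and time as terms. Alternatives were no filter, a 60th percentile filter, quantile normalization, median centring, spike-in scaling, no trend, array weights, robust eBayes, other probe sets and each array left out. List counts with an array left out were added after the data were seen.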

Additional observations from a re-analysis of the deposited data

Results flagged for a closer look

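Among genes named for the smallest p or the largest change, 12 moved fully apart in opposite directions in the 2 tables of the series. On the 4 arrays every array labelled DEX lay on one side of every vehicle array. On the 7 timed arrays every DEX array lay on the other side. BomBc3, E(spl)m2-BFM and IleRS, named through their lists, did so too. On the 4 arrays E(spl)m2-BFM was above the filter level on vehicle replicate 2 alone, with 2.48 on vehicle replicate 3 and 2.39 and 2.41 on arrays labelled DEX. Among the 12, yin passed the filter through the arrays labelled DEX alone. The separation of these 2 genes is a description and supports nothing. Of the 12, all but yin and aop came from the largest-change set, which required separate groups on the 4 arrays. The difference between the tables itself was not tested, since their probes and normalization differ. On the 4 arrays the values, arrays labelled DEX minus vehicle, were -3.80 for tim, -2.99 for CG15096, -2.47 for MFS14, -2.26 for CG13639, -2.13 for CG8008, -1.90 for per, -1.40 for CG9498 and -1.36 for Picot. On the timed arrays the same genes stood at 3.21, 2.44, 2.43, 1.33, 2.22, 2.63, 2.04 and 1.79. In the other direction the 4 arrays gave 0.88 for yin, 0.90 for aop, 1.35 for Zip89B and 1.48 for dl, and the timed arrays gave -0.84, -0.55, -1.50 and -0.51. None of the 12 passed the adjusted threshold on the timed arrays, and the smallest adjusted p of the additive fit was 0.202, for MFS14. Over all genes, 31.2% lay below vehicle and 12.1% above without overlap on the 4 arrays. The share of all genes apart in opposite directions in both tables was not counted, so the 12 have no background to be read against.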

How the results depend on the processing

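Median changes followed the scaling: scaling by spike-ins moved the median over all tested probe sets to 0.44, against -0.05 without it, and all changes with it. It gave 6453 probe sets past the adjusted threshold, 6439 of them higher, and at an unadjusted p under 0.05 6720 higher and 17 lower, with 7623 above and 31 below vehicle without overlap. Under it CG4956 (0.05), vri (0.28), CG9826 (0.21), Alp13 (0.34), Tom (0.24), Brd (0.34), Mal-A2 (0.35), nrv2 (0.07) and bt (0.13) turned positive. Quantile normalization, median centring and array weights left 0 probe sets past the threshold, with adjusted limma p of 0.22, 0.199 and 0.0504 for tim. Without a filter 23 passed, 11 of them higher; 405 were higher and 412 lower at an unadjusted p under 0.05, and 5816 lay below vehicle without overlap. The 60th percentile filter left 102 lower ones and 1302 below. With 1 array left out, which leaves a lone array assumed to vary like the other group, 0 to 314 probe sets passed, 0 to 210 of them higher; at an unadjusted p under 0.05, 131 to 591 were higher and 215 to 956 lower, and 1738 to 2219 lay above and 3245 to 4707 below. The share of lower ones among probe sets at an unadjusted p under 0.05 was 41.0% in the reported fit, 50.4% without a filter, 30.9% with the 60th percentile filter, 27.1% without the trend, 31.2% without labelled DEX replicate 1, 73.3% without vehicle replicate 2, 72.3% without vehicle replicate 3 and 0.252% under spike-in scaling. With 1 array left out vri ran between -1.20 and 0.79, and it was 0.10 without labelled DEX replicate 2 and 0.79 without vehicle replicate 2. Other probe sets reversed ACC (-0.14), stv (-0.40), futsch (-0.04) and Strn-Mlck (-0.07). Apart from spike-in scaling, the cause of these moves was not tested. No paired analysis was possible because the 2 groups share a single replicate number in the labels.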
